A study of Mus musculus with 12 samples.

Results

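Slc25a34 and Tmem82 are 2 neighbouring protein-coding genes of mouse chromosome 4, and both stood out among the genes that were higher with the glucocorticoid dexamethasone (dex) in the somatic cells of the newborn testis. They were selected on that difference, so their levels in the dex and saline somatic libraries are given here as a description without a test. They are 2 of the 54532 genes listed, and the 14 other protein-coding genes within 200 kb of the pair serve as local controls. RNA was sequenced from testes of Tg(Pou5f1-EGFP)2Mnn mice, which carry GFP under Pou5f1 (OCT4) regulatory sequence that is active in germ cells, in 12 libraries forming 4 groups of 3. Dams had received 10 μg of dex per gram of body weight, or saline, by intraperitoneal injection at E17.5 and E18.5. Their pups were given the same treatment subcutaneously at PN0 (the day of birth), and testes were taken at PN1. Germ cells were sorted from these testes by their GFP and the cells without GFP were kept as the somatic population, so each treatment gave a germ and a somatic group, and all 4 groups carry the transgene. Each library was made from pooled testes of more than 1 litter, so the spread between libraries is a spread between pools and not between single pups.

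Slc25a34 belongs to the SLC25 family of mitochondrial carriers, proteins of the inner mitochondrial membrane that move metabolites, nucleotides and inorganic ions between the cytosol and the matrix. Tmem82 encodes a predicted transmembrane protein with few described functions. Dex binds the glucocorticoid receptor, a nuclear receptor that enters the nucleus once ligand is bound and acts on genes through short DNA elements, of which the best known is a pair of inverted 6-base sites separated by 3 bases.

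Both genes are read from the minus strand and lie head to tail (GRCm38). Slc25a34 (ENSMUSG00000040740) spans chr4:141618824-141623821 and has 1 annotated transcript of 5 exons and 2670 bases. Tmem82 (ENSMUSG00000043085) spans chr4:141613376-141618633, directly downstream, and only 190 bases separate the end of Slc25a34 from the start of Tmem82. Beyond Slc25a34, 1912 bases away, lies Plekhm2, which encodes an adaptor that links lysosomes to kinesin. On the other side, 7279 bases from Tmem82, lies Fblim1, which encodes a filamin-binding LIM protein of cell junctions and the actin cytoskeleton. Tmem82 has 3 annotated transcripts, and its listed length of 3991 bases is the union of all their exons, while its coding transcript has 6 exons and 1671 bases. The antisense gene AI507597 lies under 944 of those 3991 bases (23.7%) and was listed at 0 counts in all 12 libraries. Whether reads were assigned by strand is not given in the sources used here, so reads of Tmem82 and AI507597 cannot be told apart over those bases. Of the 64-base words in the annotated transcripts, 0 of 2607 from Slc25a34 and 52 of 4052 from Tmem82 occurred in genes other than the pair and AI507597.

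The sequence upstream of Slc25a34 is shown because the pair shares an orientation and Slc25a34 holds the first start on this strand. It is the 250 bases before the RefSeq start (GRCm38.p6, chr4:141623835-141624084, minus strand, 5′ to 3′), and capitals mark the searched words that were found in it.
Slc25a34 upstream: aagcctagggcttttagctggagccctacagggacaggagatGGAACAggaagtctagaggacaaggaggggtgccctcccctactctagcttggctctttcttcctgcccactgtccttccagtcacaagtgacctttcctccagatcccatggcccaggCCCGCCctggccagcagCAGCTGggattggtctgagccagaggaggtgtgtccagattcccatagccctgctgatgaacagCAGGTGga
All words searched were picked with this sequence already in view, GGAACA last, so the presence of a word here is a description of the letters and no evidence about any factor. They were searched on both strands of this window and of all 32851 RefSeq windows of the same kind, each with a further 50 bases after the start. The receptor's single-site spelling AGAACA was not among the letters of the Slc25a34 window and was present in 19.0% of all windows. A second spelling, GGAACA, occurred 208 bases before the start and in 15.9% of all windows. The full inverted pair, AGAACA and TGTTCT with 3 bases between, was found in 3 of all windows and not in this one. TATAAA was absent from the window, against 13.6% of all windows with it. CAGGTG lay 8 bases before the start (20.2% of all windows), CAGCTG 72 bases before it (16.3%) and CCCGCC 89 bases before it (35.3%). The 250 bases shown had a GC content of 58.4%. The median over all windows, which include the 50 bases after the start, was 52.7%.

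The sorted populations had the markers of their labels. Summed over 5 germ cell markers, the level was 1823 to 2079 CPM (counts scaled to library size) in germ libraries and 7.16 to 8.42 in somatic libraries, and 5 Sertoli markers summed to 2009 to 2377 CPM in somatic libraries and to 12.5 to 25.2 in germ libraries. Libraries held 18459692 to 25178477 counts, so a floor of 3 counts corresponded to 0.111 to 0.170 CPM.

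Slc25a34 was present at a low level in saline somatic cells and was about 10 times higher after dex. Its read counts were 69, 83 and 51 in the saline somatic libraries and 680, 617 and 486 in the dex somatic libraries. Per length, these were 1.25, 1.24 and 0.885 FPKM (fragments scaled to exon length and library size) with saline and 13.7, 11.4 and 8.79 FPKM with dex. Every dex somatic library thus lay far above every saline somatic library. The means were 1.12 ± 0.206 and 11.3 ± 2.44 FPKM (SD, n = 3), and the fitted log2 fold change was 3.32 ± 0.20 (SE), with a 95% interval of 2.88 to 3.75. This was the difference on which the gene was chosen, and it ranked 8 by log2 fold change among 16766 genes tested in somatic cells.

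Tmem82 showed the same direction, from a lower level in counts and in FPKM by its listed length. Its counts were 41, 17 and 43 in the saline somatic libraries and 203, 230 and 204 in the dex somatic libraries. In FPKM it stood at 0.495, 0.170 and 0.499 with saline and at 2.73, 2.83 and 2.47 with dex. The dex libraries were close to each other and did not overlap the saline libraries, among which the second was lower than the other two. Mean levels were 0.388 ± 0.189 and 2.68 ± 0.187 FPKM (SD, n = 3), with a fitted log2 fold change of 2.79 ± 0.34 (SE; 95% interval 2.06 to 3.52), or 6.92-fold, at rank 13. Among all genes tested in somatic cells, 3.91% were called (an adjusted p of at most 0.05 by edgeR's quasi-likelihood test with Benjamini-Hochberg adjustment) and 2.74% were called higher with dex. Since both genes were selected on this contrast, nothing is read from their being among those.

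Markers of other cell types were examined in the somatic sort, beside the 3.91% of all genes called. In sorted cells in bulk, fewer cells of a type and less RNA per cell cannot be told apart. Of the marker lists, 2 of 5 peritubular and smooth muscle genes were called higher with dex (summed level 1153 to 1273 CPM with saline, 1467 to 1656 with dex). For macrophages, 2 of 5 genes were called lower (39.1 to 66.0 CPM with saline, 16.5 to 23.3 with dex). Leydig (88.3 to 148 and 66.3 to 125 CPM), endothelial (238 to 279 and 244 to 320 CPM) and erythroid lists (248 to 385 and 83.2 to 294 CPM) each had 1 gene called lower, the erythroid list with 3 of its 5 genes tested, and their summed levels overlapped between saline and dex. No Sertoli gene was called, with all 5 tested, and no skeletal muscle gene, with 3 of 6 tested. Of 4 adrenal cortex markers, 2 were at 0 in all saline somatic libraries and 1 in all dex somatic libraries. The list summed to at most 0.964 CPM with saline and 2.49 CPM with dex. Its 1 tested gene had a log2 fold change of 1.74 and was not called. The part of these markers' cell types in the levels of the pair was not tested.

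**Figure D1:**
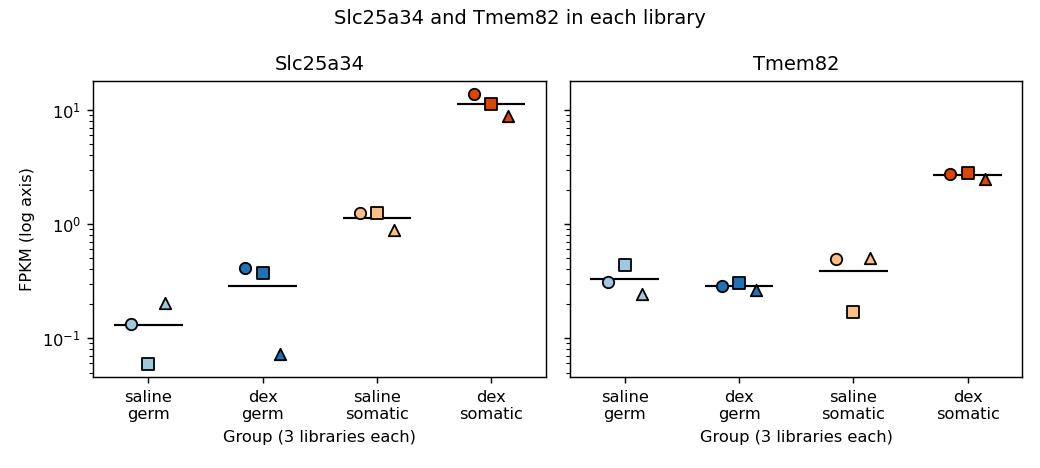
Level of Slc25a34 (left) and Tmem82 (right) in FPKM on a log axis in each of the 12 libraries, with circles, squares and triangles for replicates 1, 2 and 3 and a line at each group mean. The dex somatic libraries lie at 8.79 to 13.7 FPKM for Slc25a34 and 2.47 to 2.83 FPKM for Tmem82, above every other library, while the germ libraries stay below 0.5 FPKM for both genes.

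Germ cells from the same dosed testes were then compared, which is a contrast that did not choose the pair. Slc25a34 counts were 8, 3 and 11 in the saline germ libraries and 23, 26 and 4 in the dex germ libraries. These corresponded to 0.133, 0.0596 and 0.201 FPKM with saline and to 0.408, 0.371 and 0.0720 FPKM with dex. A pair of dex libraries lay above all saline libraries and the remaining one lay among them, so the groups overlapped. The log2 fold change was 1.08 ± 0.68 (SE), with a 95% interval of -0.38 to 2.54, and did not pass the test (adjusted p = 0.508, edgeR). A difference was not detectable at these counts, and 1 saline library was at the floor of 3 counts.

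Tmem82 in germ cells had 28, 33 and 20 counts with saline and 24, 32 and 22 with dex. The FPKM values were 0.311, 0.438 and 0.245 with saline and 0.285, 0.306 and 0.265 with dex, with the dex libraries all inside the saline range. The log2 fold change was -0.23 ± 0.41 (SE; 95% interval -1.11 to 0.64; adjusted p = 0.847, edgeR), and a difference was not detectable at this depth. Of all genes tested in germ cells, 1.25% were called. The germ effect minus the somatic effect was -2.20 ± 0.66 (SE; 95% interval -3.60 to -0.80) for Slc25a34 and -3.00 ± 0.53 (-4.11 to -1.88) for Tmem82 on the log2 scale. Because the somatic effect within this difference chose the genes, it carries no test here. Among all genes, 0.827% were called for a difference of this kind.

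Without dex, the populations differed for Slc25a34 and were not shown to differ for Tmem82; the difference between the genes was not tested. Slc25a34 was lower in germ than in somatic cells: the saline germ libraries (at most 0.201 FPKM) did not overlap the saline somatic libraries (at least 0.885 FPKM). Its log2 difference was -3.19 ± 0.50 (SE; 95% interval -4.28 to -2.11; adjusted p = 8.51e-05, edgeR), and the germ mean in CPM was 10.7% of the somatic mean. Tmem82 levels overlapped between both populations, at 0.245 to 0.438 FPKM in germ and 0.170 to 0.499 FPKM in somatic cells. The log2 difference was -0.34 ± 0.50 (SE; 95% interval -1.44 to 0.77; adjusted p = 0.559, edgeR), with the germ mean at 79.3% of the somatic mean. Germ and somatic cells differed at most genes, with 76.5% called, 39.8% higher and 36.7% lower in germ cells. The saline somatic libraries of this contrast are also the controls of the contrast that chose the pair.

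In order of mean FPKM, Slc25a34 ran from dex somatic (11.3) over saline somatic (1.12) and dex germ (0.284) to saline germ (0.131), and only the 2 germ groups overlapped. For Tmem82 the order was dex somatic (2.68), saline somatic (0.388), saline germ (0.331) and dex germ (0.285), and the last 3 groups overlapped. As a gauge of somatic RNA in the germ sort, the 20 somatic marker genes with at least 10 CPM in saline somatic cells stood in the saline germ libraries at a median of 2.58% of their saline somatic level, from 0.320% for Acta2 to 151% for Pecam1. Slc25a34 in saline germ cells was at 10.7% and Tmem82 at 79.3% of the saline somatic mean. With dex, the same 20 genes stood at a median of 2.28%, from 0.108% for Fshr to 313% for Pecam1. There, Slc25a34 in dex germ cells was at 2.34% and Tmem82 at 9.91% of the dex somatic mean. The part of somatic RNA in the germ values of the pair was not tested.

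The balance between the neighbours also stood apart between the populations. The ratio of Slc25a34 to Tmem82 FPKM was 5.01, 4.01 and 3.56 in the dex somatic libraries and 2.52, 7.30 and 1.77 in the saline somatic libraries. In germ cells it was 1.43, 1.21 and 0.272 with dex and 0.427, 0.136 and 0.822 with saline. All 6 somatic libraries lay above all 6 germ libraries, whereas dex and saline overlapped within each population. Group means were 4.19 ± 0.740 (dex somatic), 3.86 ± 3.00 (saline somatic), 0.973 ± 0.617 (dex germ) and 0.462 ± 0.344 (saline germ; SD, n = 3). The high saline somatic value of 7.30 came from the library with 17 Tmem82 counts. The germ ratios rest on few Slc25a34 counts, 3 to 11 a library with saline and 4 to 26 with dex. The somatic levels in these ratios are those on which the pair was chosen. With the coding transcript's length for Tmem82 in place of the union of exons, the dex somatic mean was 1.76, so the size of the ratio rests on the length used.

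**Figure D2:**
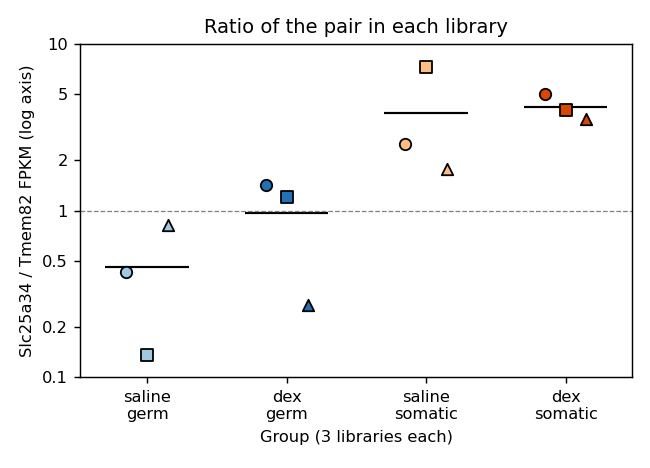
Ratio of Slc25a34 to Tmem82 FPKM on a log axis in each library, by group, with circles, squares and triangles for replicates 1, 2 and 3, a line at each group mean and a dashed line at equal levels. The somatic libraries lie between 1.77 and 7.30 and the germ libraries between 0.136 and 1.43.

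The surrounding genes were examined to see whether the somatic difference extended along the chromosome. Of 14 protein-coding genes within 200 kb, 9 could be tested in somatic cells and 1, Fblim1, was called higher (11.1%). Over all genes, 2.74% were called higher with dex and 3.91% in either direction. Fblim1 counts were 2772, 3870 and 2940 with saline and 3989, 4236 and 4071 with dex. In CPM this was 151 ± 16.3 and 215 ± 10.4 (SD, n = 3), with no overlap in CPM between the groups. Its log2 fold change was 0.54 ± 0.080 (SE, adjusted p = 0.000852, edgeR). The pair was chosen for its large values in this contrast. A gap in size between the pair and its neighbours follows from that choice and is not read as a result. Plekhm2, the nearest gene on the side of the Slc25a34 start, stood at 99.1 ± 3.09 CPM with saline and 110 ± 4.51 CPM with dex. Its log2 fold change was 0.17 ± 0.085 (SE; adjusted p = 0.330, edgeR) and did not pass the test. The 9 tested genes had a median log2 fold change of 0.00065, beside a median of -0.0066 over all genes. They ranged from -0.29 (Cela2a, a pancreatic-type elastase) to 0.54 (Fblim1). Cela2a had few somatic counts, 10 to 19 a library with saline and 0 to 26 with dex. Its estimate was wide (SE 0.98, 95% interval -2.37 to 1.79). The genes with too few somatic counts to be tested included Agmat, Ctrc, Srarp and Rsc1a1. Rsc1a1 lies wholly within the interval of Ddi2, and Ctrc covers that of Cela2a, each on the same strand. The low counts of Rsc1a1 and Ctrc are therefore less certain.

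**Figure D3:**
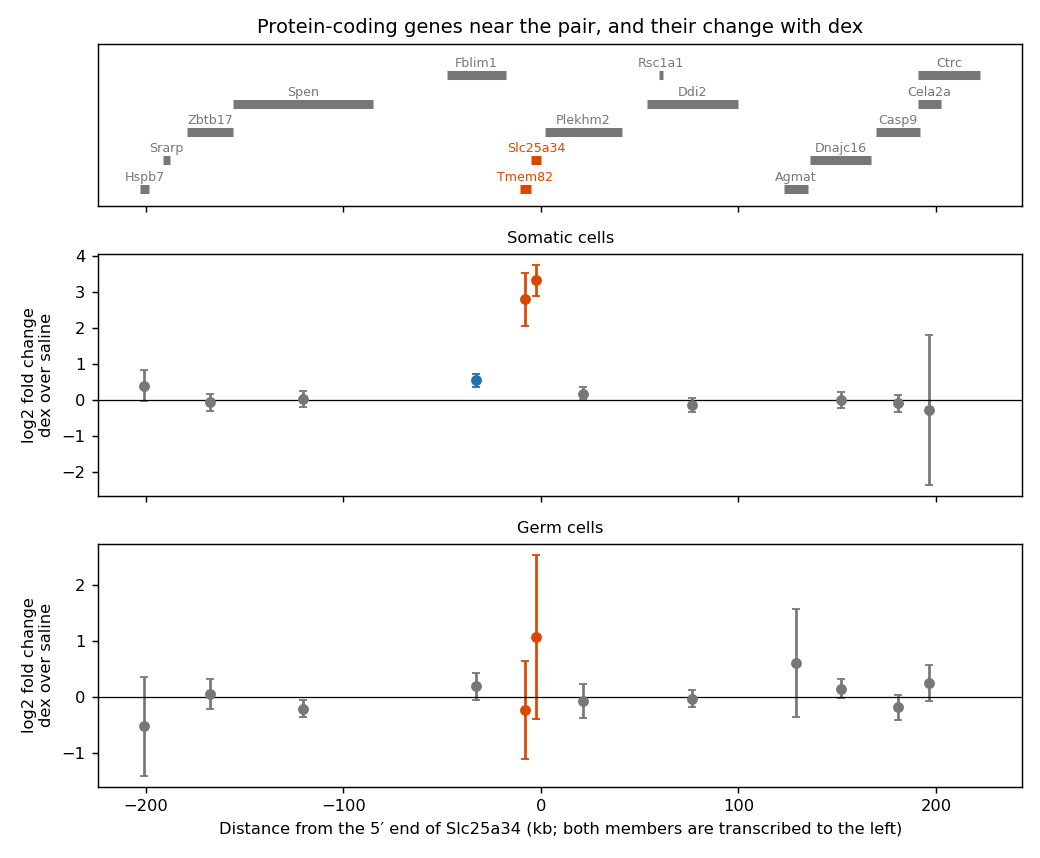
Map of the protein-coding genes within 200 kb of the pair, except 1 that is not reported here (top) and their log2 fold change with dex in somatic cells (middle) and germ cells (bottom), with 95% intervals, against distance in kb from the 5′ end of Slc25a34. Orange marks Slc25a34 and Tmem82, blue marks Fblim1, the gene called in somatic cells, and grey marks genes that were not called. In somatic cells the pair, which was chosen on this contrast, stands at 3.32 and 2.79. The tested neighbours, chosen by position, lie between -0.29 and 0.54.

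In germ cells, 11 of the 14 local genes were tested and 0 were called with dex by edgeR or by DESeq2, while 1 (Spen, a transcriptional corepressor, named after its value was seen) had an unadjusted p under 0.05, as did 14.7% of all genes tested. Their log2 fold changes ran from -0.52 to 0.61 with a median of 0.042. Fblim1 had a log2 fold change of 0.20 ± 0.11 (SE; adjusted p = 0.456, edgeR) and Plekhm2 of -0.070 ± 0.14 (adjusted p = 0.873, edgeR). The difference between the germ and somatic effects of dex was called for 0 of 11 local genes by edgeR and by DESeq2, and 0 had an unadjusted p under 0.05, against 13.3% of all genes. For Fblim1 this difference was -0.31 ± 0.16 (SE; adjusted p = 0.430, edgeR), so its response was not shown to differ between the populations.

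Between germ and somatic cells in saline, 10 of 11 tested local genes were called (90.9%, against 76.5% of all genes). In germ cells 8 were higher and 2 lower, beside 39.8% of all genes called higher and 36.7% called lower. A pattern along the chromosome was not tested. The 2 that were lower are the genes that flank the pair: Plekhm2 by a log2 difference of -2.61 ± 0.11 (SE; adjusted p = 5.05e-10, edgeR) and Fblim1 by -0.96 (adjusted p = 2.23e-05, edgeR). Of the pair that lies between them, Slc25a34 was lower in germ cells and Tmem82 was not called (log2 difference -0.34; adjusted p = 0.559, edgeR). Farther out, the genes higher in germ cells included Spen (0.59), Ddi2 (0.67, a ubiquitin-linked protease), Casp9 (1.02, the initiator caspase of the mitochondrial death pathway), Dnajc16 (0.92, a J-domain cochaperone), Zbtb17 (0.65, the zinc finger factor Miz-1), Cela2a (4.76) and Agmat (2.29, an agmatinase family enzyme). Cela2a lies wholly within the interval of Ctrc on the same strand and shares part of its interval with Casp9, so its reads are less certain. Hspb7 (0.22 ± 0.32, SE; adjusted p = 0.550, edgeR) was the tested local gene that was not called.

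Among the mitochondrial carriers, Slc25a34 ranged from near the bottom of the family to above its median in somatic cells once dex was given. By mean FPKM it ranked 43 of 52 carriers in saline somatic cells and 17 in dex somatic cells, where the family medians were 4.18 and 5.56 FPKM. In germ cells it ranked 48 with saline and 46 with dex. The most abundant carriers were Slc25a5, an ADP/ATP carrier, in somatic cells (130 and 137 FPKM with saline and dex) and Slc25a31, the germ cell ADP/ATP carrier, in germ cells (171 and 176 FPKM). Slc25a35, the carrier next in number, had the opposite pattern between populations, at 2.48 FPKM in saline germ and 0.525 FPKM in saline somatic cells (log2 difference 2.11 ± 0.27, SE; adjusted p = 1.49e-05, edgeR). With dex it was at 0.415 FPKM in somatic cells (log2 fold change -0.34 ± 0.46, SE; adjusted p = 0.791, edgeR) and at 2.39 FPKM in germ cells (-0.073 ± 0.21; adjusted p = 0.917).

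**Figure D4:**
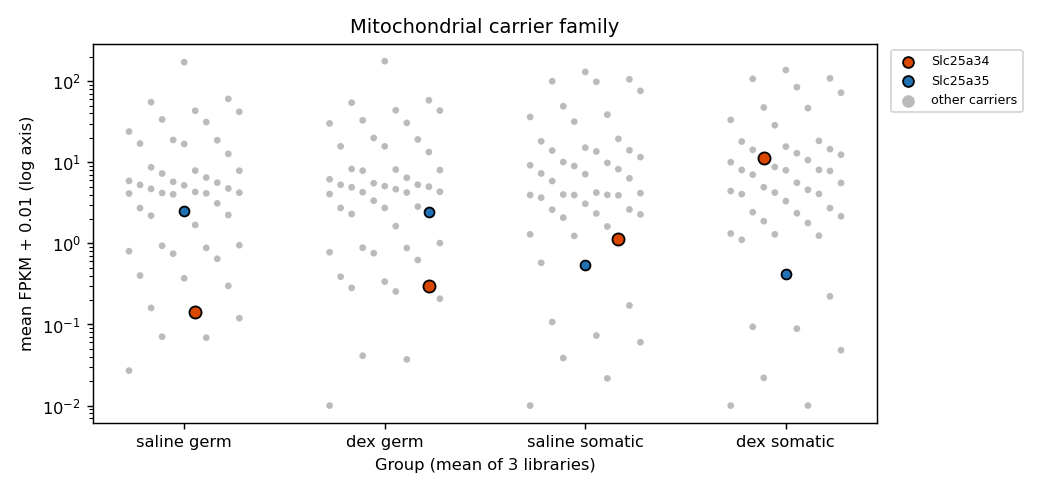
Mean FPKM of each of the 52 mitochondrial carrier genes in the 4 groups on a log axis, with a small constant added so that genes at 0 can be drawn; points are spread sideways only for legibility. Slc25a34 (orange) lies at 0.131 FPKM in saline germ, 0.284 in dex germ, 1.12 in saline somatic and 11.3 in dex somatic cells, while Slc25a35 (blue) is higher in germ cells.

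Of the 51 other carriers, 44 were tested with dex in somatic cells and 0 were called by edgeR or DESeq2, with 5 at an unadjusted p under 0.05 (all genes, 16.1%). Their log2 fold changes ran from -0.69 to 0.95 with a median of 0.027. In germ cells 47 were tested and 0 were called by either tool, with 9 at an unadjusted p under 0.05 (all genes, 14.7%), a range of -0.61 to 0.46 and a median of -0.032. Between germ and somatic cells in saline, 46 were tested, of which 9 were higher and 25 lower in germ cells. The 73.9% called was near the 76.5% called over all genes, of which 39.8% were higher and 36.7% lower. The median over these 46 carriers was -0.67 on the log2 scale, beside -3.19 for Slc25a34 and a median of 0.072 over all genes.

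To describe which genes had the most similar profile, log2 CPM was correlated with each member over the 12 libraries among 16038 protein-coding genes. The 12 points share their groups and libraries, so a correlation here mostly restates the 4 group levels. The genes most like Slc25a34 were Per1, a repressor of the circadian clock (r = 0.981), Nucb1, a calcium-binding Golgi protein (0.981), Pxmp4, a peroxisomal membrane protein (0.977), Gpx3, the secreted glutathione peroxidase (0.971), and Wfikkn2, a secreted protease inhibitor-like protein (0.968). In somatic cells Gpx3 went from 71.8 ± 2.18 to 255 ± 12.8 CPM and Per1 from 129 ± 7.33 to 212 ± 5.93 CPM (SD, n = 3), while Slc25a34 went from 3.21 ± 0.636 to 31.4 ± 7.01 CPM.

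The genes most like Tmem82 were Errfi1, a feedback inhibitor of EGF receptor signalling (r = 0.984), Iscu, the iron-sulphur cluster scaffold (0.940), Adamtsl4, a matrix protein (0.936), Gpr179, an orphan receptor (0.932), and Lrg1, a secreted leucine-rich glycoprotein (0.927). Errfi1 had germ levels of 82.3 ± 2.42 CPM with saline and 75.6 ± 1.99 CPM with dex and somatic levels of 88.1 ± 19.3 and 191 ± 24.4 CPM (SD, n = 3), so that, like Tmem82, its dex somatic group stood apart from the other 3 groups. The members were not each other's nearest profile. Their correlation was 0.853, which placed Slc25a34 at rank 40 for Tmem82 and Tmem82 at rank 1705 for Slc25a34. The lists of 5 had no gene in common. Both members were chosen on the same somatic contrast, and the germ values of Slc25a34 rest on 3 to 26 counts a library. Whether the members are regulated alike was not tested.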

How the data were processed

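Poly(A) RNA from sorted cells was sequenced. Per the labels the authors aligned reads to mm10 with HISAT2 2.0.5 and counted with featureCounts 1.5.0-p3. The deposited values are raw gene counts and FPKM made by the authors from counts, exon-union lengths and a library size. That library size was 0.956 to 1.04 times the library total. Tables of the authors' own fold changes and p-values were not used. Strand setting and annotation release are not given in the sources used here; coordinates matched GENCODE M21. In R 4.3.3, counts were tested with edgeR 4.0.16 (TMM, filterByExpr with a minimum of 10, quasi-likelihood test, Benjamini-Hochberg adjustment over all genes tested, threshold 0.05) on the 6 libraries of each comparison, and on all 12 for germ minus somatic effects. Alternatives used DESeq2 1.42.0, limma 3.58.1 on log2(FPKM + 0.1) and log2(FPKM + 1), library totals, no filter, replicate blocks, other windows and left-out replicates. The fits were tested on simulated data.

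Named were the pair, the flanking genes, Slc25a35, every local gene called (except 1 that is not reported here), carriers called with dex, and for each member the 5 protein-coding genes with the highest correlation of log2 CPM (prior count 2). Members and lists were chosen with earlier results of these data known. Intervals and floors cover counting error or the spread between these pools only. Replicate libraries differed beyond sampling noise, so each counted once.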

Additional observations from a re-analysis of the deposited data

Results flagged for a closer look

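Ucp2, a carrier of the inner mitochondrial membrane in the same family as Slc25a34, differed between the populations in its dex effect, and it was named after its value was seen. Its level was 28.6 ± 2.64 CPM in saline germ, 35.7 ± 1.71 in dex germ, 732 ± 22.7 in saline somatic and 614 ± 55.0 CPM in dex somatic cells (SD, n = 3). The germ effect minus the somatic effect was 0.57 ± 0.12 (SE) on the log2 scale (interaction term, adjusted p = 0.0374, edgeR), the 1 carrier called of 48 tested (2.08%), beside 0.827% called over all genes. Neither effect passed alone, at 0.31 in germ cells (adjusted p = 0.187, edgeR) and -0.23 in somatic cells (adjusted p = 0.204). The call was lost with a replicate block (adjusted p = 0.0681, edgeR) and in 9 of 12 fits that left out 1 library (adjusted p from 0.0298 to 0.117).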

How the results depend on the processing

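For Slc25a34 the lower saline germ level passed in every alternative run, from -3.64 to -2.85 with 1 library left out (adjusted p 0.000111 to 0.00100, edgeR) and at -3.12 with DESeq2 (adjusted p = 1.39e-07). In germ cells neither member passed with dex in any edgeR or limma fit, and DESeq2 gave no adjusted p for them. Leaving out 1 library gave 0.74 to 1.52 for Slc25a34 (adjusted p 0.316 to 0.790, edgeR) and -0.42 to 0.016 for Tmem82, which turned direction to 0.016 without saline germ replicate 2 (adjusted p = 0.996). Slc25a35 in germ cells ran from -0.23 to 0.078 with 1 library left out, turning to 0.064 without dex germ replicate 2 and to 0.078 without saline germ replicate 3. In somatic cells the log2 fold change with left-out libraries was 3.16 to 3.47 for Slc25a34 and 2.42 to 3.03 for Tmem82, and limma on log2(FPKM + 1), which shrinks low genes, gave 2.52 and 1.41. On that scale Slc25a34 was -0.91 between saline germ and somatic cells and 0.17 with dex in germ cells (0.63 with 0.1 added). Counts of all genes called moved more. In germ cells 231 became 711 (DESeq2), 767 (no filter), 6 and 12 (limma with 0.1 and 1) and 49 to 265 with 1 library left out, with 115 and 102 without dex germ replicates 1 and 3, and 49 and 75 without saline germ replicates 1 and 2. In somatic cells 655 became 1061 (no filter), 251 and 281 (limma) and 354 to 547, with 398 without dex somatic replicate 2, and 383 and 354 without saline somatic replicates 1 and 3. For the difference of effects 170 became 648 (DESeq2), 706 (no filter) and 79 to 172, with 87 and 110 without dex germ replicates 1 and 3, 81, 98 and 107 without saline germ replicates 1, 2 and 3, 94 and 104 without dex somatic replicates 2 and 3, and 79 without saline somatic replicate 3. Other carriers called with dex in germ cells were 1 with no filter and 0 to 1 with left-out libraries (1 without saline germ replicate 3), and for the difference of effects 0 to 1. Between saline germ and somatic cells, 4 of 4 tested local genes were called within 100 kb and 19 of 22 within 500 kb. Over all genes 76.5% were called, and the windows differ in genes (5 and 25 listed). The coding length of Tmem82, chosen after seeing the data, gave a dex somatic ratio of 1.76. Apart from Ucp2 above, other alternatives kept direction and call. Apart from the window sizes, the cause of these changes was not tested.

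Same-numbered libraries deviated with correlations of -0.088 to 0.044 and were not paired. In saline, germ and somatic libraries gave 0.037 to 0.044 with equal numbers, otherwise -0.028 to -0.0088. Whether equal numbers share pools was not tested. A replicate block called 65 genes in germ cells and 104 for the difference of effects, where 0 other carriers remained. It gave 0.96 for Slc25a34 in germ cells (adjusted p = 0.664, edgeR) and -3.23 between saline germ and somatic cells (adjusted p = 0.000627). Few reads, 3 to 26 a library, limit Slc25a34 in germ cells.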
